A study of Rattus norvegicus with 86 samples.

Results

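Expression of 3 genes that mark the direct-pathway neurons of the striatum, Drd1, Pdyn and Tac1, was examined in the core of the nucleus accumbens, part of the ventral striatum, in Heterogeneous Stock (HS) rats. The genes were taken by their Ensembl identifiers, ENSRNOG00000023688 for Drd1, ENSRNOG00000026036 for Pdyn and ENSRNOG00000007374 for Tac1, and make up 3 of the 17180 genes measured by RNA-Seq. HS rats are an outbred population bred from inbred founder strains, so each animal carries its own mosaic of founder haplotypes. All animals were untreated and group housed, their age, stated in the study's methods, was similar in both sexes, and each library held polyadenylated RNA from the bilateral tissue of a single rat.

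The series held 86 samples, of which 11 were labelled as removed and had no values here, which left 75 libraries from 38 females and 37 males. Rats were grouped by the batch number in their labels, whose meaning is not stated. Females numbered 2 of the 12 rats in batch 2, 13 of 20 in batch 3, 14 of 26 in batch 4 and 8 of 16 in batch 6, and batch 5 was a lone female. The total count per library, recovered from the rounding of the deposited values, averaged 17741117 ± 3102995 (SD, n = 75), the shallowest library holding 8455361 and the deepest 26145621. Columns of the table stood in 3 runs, each sorted by animal code, and what a run stands for is not given in the sources used here. Rat batch 2 lay wholly in run 1, and rat batches 4, 5 and 6 lay wholly in run 3. Rat batch 3 was spread over the runs, with 7 rats in run 1, 12 in run 2 and 1 in run 3.

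The projection neurons of the striatum form a direct and an indirect pathway to the output nuclei of the basal ganglia. Direct-pathway neurons carry the D1 dopamine receptor, encoded by Drd1, which couples to the stimulatory G protein of the striatum and raises cyclic AMP. The same neurons make 2 neuropeptide precursors, prodynorphin from Pdyn, which is cleaved to dynorphins that act on the kappa opioid receptor, and preprotachykinin from Tac1, which is cleaved to substance P and neurokinin A. Both precursor genes are known to respond to D1 receptor signalling through cyclic AMP, and in the accumbens the dynorphin and dopamine systems are studied in reward and aversion. In bulk tissue, fewer cells of a type and less RNA per cell cannot be told apart.

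The 3 symbols were matched in RefSeq on the rat build GRCr8, which is not the build of the expression table (Rnor_6.0). On GRCr8, Drd1 spanned chr17:10545488-10550029, Pdyn spanned chr3:137354161-137366503 and Tac1 spanned chr4:36645344-36653548. The 250 bases before the listed start site are shown for the peptide precursor genes, the members that passed the test between rat batches with sex as the only covariate, and whose windows reach upstream of the gene. The window of Pdyn lay at chr3:137366504-137366753 on the minus strand and that of Tac1 at chr4:36645333-36645582 on the plus strand, both written 5′ to 3′ along the gene. The start site listed for Tac1 lies within the RefSeq span of the gene, so that 239 bases of the Tac1 window were inside the gene and 11 before it. The Drd1 window, at chr17:10546354-10546603, lay wholly inside that gene and is not printed. Capitals mark a TATA box (TATAAA) in Pdyn and in Tac1 the letters TGACG (on the opposite strand), a part of the cyclic AMP response element, whose full letters (TGACGTCA) are not in this window.
Pdyn: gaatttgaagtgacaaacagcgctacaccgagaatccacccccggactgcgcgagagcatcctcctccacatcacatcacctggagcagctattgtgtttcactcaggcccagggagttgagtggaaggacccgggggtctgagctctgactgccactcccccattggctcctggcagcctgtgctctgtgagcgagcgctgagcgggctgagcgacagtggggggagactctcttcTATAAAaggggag
Tac1: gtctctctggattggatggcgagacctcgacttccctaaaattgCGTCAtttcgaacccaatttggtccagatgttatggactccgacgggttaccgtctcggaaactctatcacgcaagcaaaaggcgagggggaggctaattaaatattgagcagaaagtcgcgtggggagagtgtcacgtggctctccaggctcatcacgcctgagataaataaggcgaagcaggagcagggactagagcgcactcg

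Each window was searched on both strands for the TATA box (TATAAA), the CCAAT box, the GC box (GGGCGG), the cyclic AMP response element (TGACGTCA) and the core of the latter (TGACG), which every full element contains. In Pdyn, TATAAA lay 13 to 8 bases before the start and CCAAT, on the opposite strand, 87 to 83 bases before it. In Tac1, positions are again counted from the listed start. TGACG on the opposite strand lay 206 to 202 bases before it, inside the gene's span, and CCAAT lay 240 to 236 bases before it on the opposite strand and again, inside the span, on the gene's strand. The Drd1 window held none of these letters. Of 33469 windows of the same length, 12.9% held TATAAA, 34% held CCAAT, 18.2% held TGACG, 30.5% held GGGCGG and 1.59% held TGACGTCA. The matches describe the sequence and are not evidence of binding.

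All 3 genes were measured well above the noise of counting in every library. Levels are given as log2(scaled count + 1), the scale of the table, and are not compared between genes because no transcript length was at hand. Drd1 had a mean level of 12.13 ± 0.16 (SD, n = 75) and ran from 11.60 to 12.49, a 1.84-fold range of scaled counts. The level of Pdyn averaged 13.43 ± 0.21 (SD, n = 75) and ran from 12.93 to 13.89, a 1.95-fold range. Tac1 was the most variable, with a mean level of 12.56 ± 0.31 (SD, n = 75), a lowest level of 11.87 and a highest of 13.23, a 2.57-fold range. The recovered counts behind these levels ran from 1426 to 6940 for Drd1, from 4000 to 16784 for Pdyn and from 2507 to 9292 for Tac1. At the lowest count, counting alone would give an SD of 0.038 on the log2 scale for Drd1, 0.023 for Pdyn and 0.029 for Tac1.

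**Figure D1:**
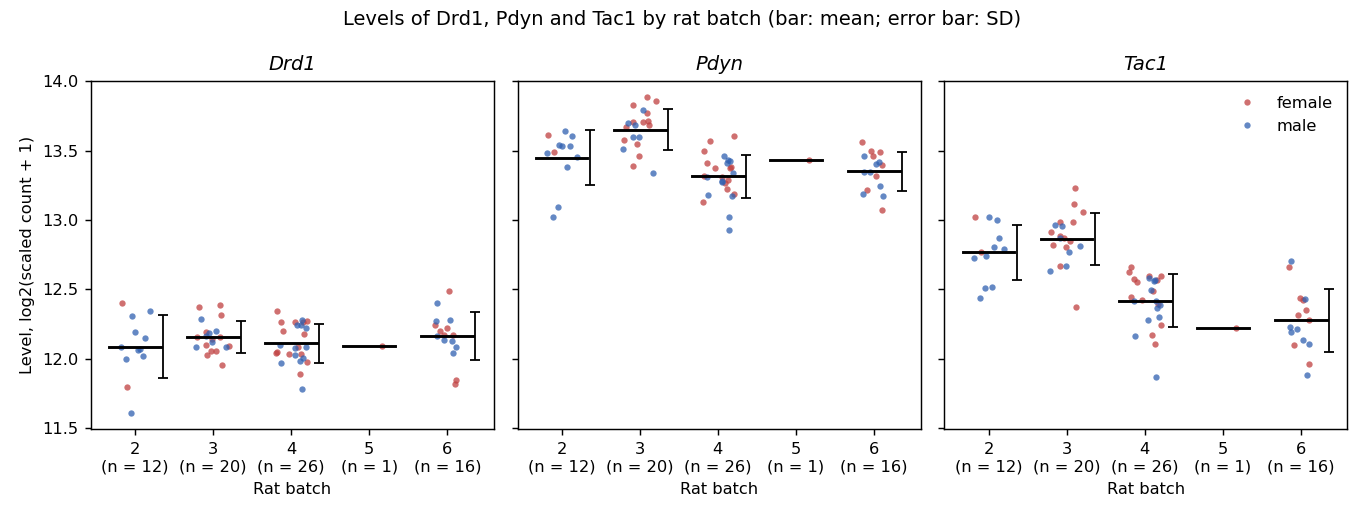
Level of Drd1, Pdyn and Tac1 in each of the 75 rats, as log2(scaled count + 1), by rat batch and sex (points), with the mean (bar) and SD (error bar) of each rat batch. The Drd1 means lie between 12.09 and 12.17 in every rat batch, while Tac1 lies lower in rat batches 4 and 6 than in 2 and 3.

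Levels of Drd1, the receptor gene, had medians between 12.08 and 12.17 in the 4 larger rat batches. In rat batch 2 they had a lowest value of 11.60, a median of 12.08 and a highest of 12.40. The same values were 11.95, 12.15 and 12.39 in rat batch 3. Rat batch 4 followed with 11.78, 12.08 and 12.34, while 11.82, 12.17 and 12.49 were found in rat batch 6. The rat of batch 5 had 12.09. The ranges overlapped and were unequal in width, with an SD of 0.23 in rat batch 2 and 0.11 in rat batch 3. The lowest Drd1 level belonged to rat 6 of rat batch 2, the library with the lowest total count. Of the variance of Drd1, 3.31% lay between rat batches, less than for most genes, the median being 17.1% over the 12988 genes with a mean level of at least 5.

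Pdyn, the dynorphin precursor gene, was highest in rat batch 3. Its lowest, median and highest levels were 13.34, 13.68 and 13.89 in rat batch 3, against 13.02, 13.51 and 13.64 in rat batch 2. They were 12.93, 13.31 and 13.60 in rat batch 4 and 13.07, 13.37 and 13.56 in rat batch 6, and the level was 13.43 in the rat of batch 5. The rat batches overlapped, although 12 of the 20 rats of batch 3 lay above every rat of batch 4 and 15 of 20 above every rat of batch 6. Differences between rat batches made up 45.5% of the variance of Pdyn, more than for 92.7% of the genes with a mean level of at least 5.

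Tac1, the substance P precursor gene, fell into a higher and a lower set of rat batches. Its lowest, median and highest levels were 12.44, 12.78 and 13.02 in rat batch 2 and 12.37, 12.87 and 13.23 in rat batch 3. They were 11.87, 12.43 and 12.66 in rat batch 4 and 11.88, 12.25 and 12.70 in rat batch 6, and the level was 12.22 in the rat of batch 5. All 26 rats of batch 4 and all 16 rats of batch 6 lay below the median of rat batch 2, and 14 of the 16 rats of batch 6 lay below its lowest rat. The ranges still overlapped at their edges. Of the 20 rats of batch 3, 18 lay above every rat of batch 4. For Tac1 the part between rat batches was 61.4% of the variance, more than for 99% of the genes with a mean level of at least 5.

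A comparison across rat batches 2, 3, 4 and 6, with sex as a covariate, asked whether these levels differed beyond the spread between rats. In limma's moderated F test, adjusted over all genes, Tac1 (F = 38.2, adjusted p = 5.9e-13) and Pdyn (F = 19.6, adjusted p = 3.4e-08) passed the threshold of 0.05, and Drd1 did not (F = 0.81, adjusted p = 0.56). The background was high, since 9192 of the 17180 genes tested, or 53.5%, passed the same test. A count of 2 of 3 members is therefore close to the share over all genes.

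Differences between pairs of rat batches placed these shifts. The median log2 difference over all genes was within 0.02 of 0 in each of the 6 pairs. Tac1 was lower in rat batch 4 than in rat batch 2 by 23.4% (log2 difference -0.39, 95% confidence interval -0.52 to -0.25, limma adjusted p = 1.6e-05) and lower than in rat batch 3 by 25.9% (-0.43, -0.55 to -0.32, limma adjusted p = 5.2e-09). In rat batch 6 the Tac1 differences were -0.52 from rat batch 2 (-0.67 to -0.38, limma adjusted p = 1.1e-07) and -0.57 from rat batch 3 (-0.70 to -0.44, limma adjusted p = 4.5e-11), the latter a level 32.7% lower. Between rat batches 2 and 3 the Tac1 difference was 0.05 (-0.10 to 0.19, limma adjusted p = 0.77), and between 4 and 6 it was -0.14 (-0.26 to -0.02, limma adjusted p = 0.18). Neither passed.

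Pdyn was lower in rat batches 4 and 6 than in rat batch 3. The difference was 20.4% for rat batch 4 (log2 difference -0.33, 95% confidence interval -0.42 to -0.24, limma adjusted p = 2.0e-08) and 18.2% for rat batch 6 (-0.29, -0.39 to -0.19, limma adjusted p = 3.8e-06). From rat batch 2 to rat batch 4 the difference was -0.16 (-0.27 to -0.05, limma adjusted p = 0.020). From rat batch 2 to rat batch 6 it was -0.12 (-0.24 to -0.01, limma adjusted p = 0.097), which did not pass with all rats and passed, at -0.16 (limma adjusted p = 0.034), without the males with the lowest total count in each of these batches. The rise from rat batch 2 to rat batch 3, 0.17 (0.05 to 0.28, limma adjusted p = 0.089), and the difference between rat batches 4 and 6, 0.04 (-0.06 to 0.14, limma adjusted p = 0.71), did not pass. Without rat batch 3, Pdyn no longer passed the F test over the other rat batches (limma adjusted p = 0.058).

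For Drd1 none of the 6 pairs passed with sex as the only covariate. The fitted differences lay between -0.04 and 0.08, and the widest interval, between rat batches 2 and 6, ran from -0.05 to 0.20. These values moved when the column run was also fitted, as given below. The shares of all genes lower in the later rat batch and past the threshold were 13.2% from 2 to 4, 17.9% from 2 to 6, 20.3% from 3 to 4 and 22.3% from 3 to 6. From rat batch 2 to 3 a share of 3.44% of genes passed in either direction, and 3.87% did from 4 to 6. The former share was 1.68% without the male with the lowest total count in rat batches 2 and 6 each. Tac1 was among the 1379 genes, 8.03% of those tested, that were lower in both rat batches 4 and 6 than in both 2 and 3, with all 4 differences past the threshold. Pdyn and Drd1 were not among them.

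**Figure D2:**
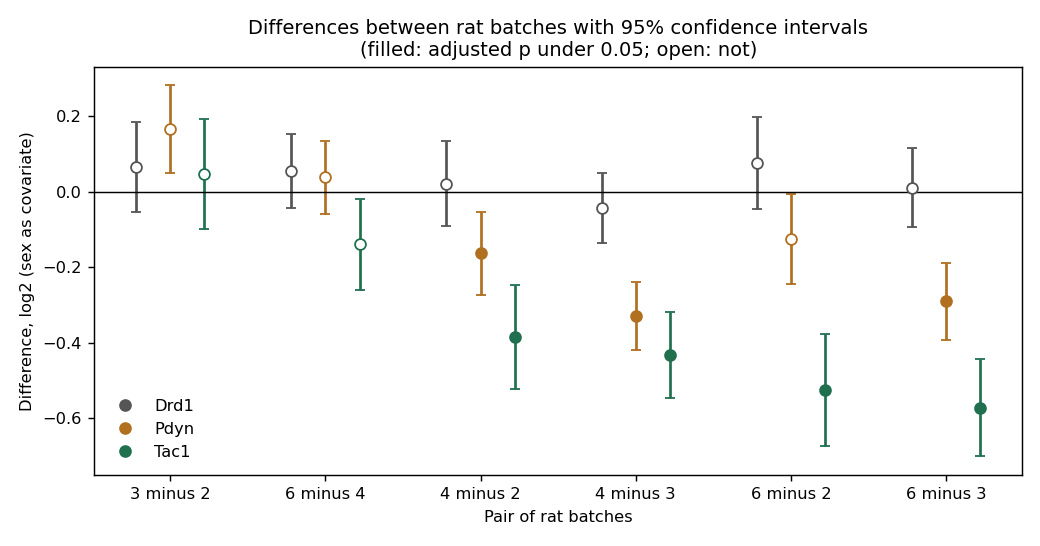
Fitted difference in level between each pair of rat batches (log2, the later minus the earlier, with sex as a covariate) for Drd1, Pdyn and Tac1, with 95% confidence intervals. Filled points passed the limma adjusted threshold of 0.05 and open points did not. All Drd1 intervals include 0, and Tac1 is lowest in rat batch 6 against rat batch 3, at -0.57.

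Rat batch and column run moved together. With the run as a further covariate, no member passed the F test between rat batches, with adjusted p-values from limma of 0.38 for Tac1, 0.52 for Pdyn and 0.52 for Drd1, and 169 genes, or 0.984%, passed over the whole table. In that fit the Tac1 differences of rat batches 4 and 6 from 2 and 3 stayed negative and were smaller. They ran from -0.11 (rat batch 4 against 2, confidence interval -0.54 to 0.32) to -0.35 (rat batch 6 against 3, -0.74 to 0.05). Those of Pdyn from rat batch 2 to 4 and 6 turned positive, and those from rat batch 3 came to -0.04 (rat batch 4) and 0.00085 (rat batch 6). Each of these intervals included 0, so the fit did not resolve the direction for either gene. Drd1 stood above rat batch 2 by 0.16 in rat batch 3 (0.01 to 0.31). It did so by 0.18 in rat batch 4 (-0.17 to 0.52) and 0.23 in rat batch 6 (-0.12 to 0.58). None of these differences passed. Only rat batch 3 joins the runs, through 1 rat in run 3, so that rat batch and run cannot be told apart for most of the contrast. That rat, rat 5 of rat batch 3, had a Tac1 level of 12.67, above the highest rat of batch 4 and below that of batch 6 (12.70), which is also in run 3, and a Pdyn level of 13.39, within the range of batch 4.

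Within rat batch 3 the runs could be set against each other, in a test chosen after the data were seen. Drd1 was lower in the 12 rats of run 2 than in the 7 rats of run 1, with mean levels of 12.11 ± 0.07 and 12.25 ± 0.12 (SD), so that the fitted difference was -0.15 ± 0.05 (SE, log2 scale, limma adjusted p = 0.041). In that comparison 11.1% of genes passed. Pdyn and Tac1 did not pass, with differences of 0.02 ± 0.06 and -0.07 ± 0.08 (SE, limma adjusted p = 0.92 and 0.69). In both runs the mean Tac1 level of rat batch 3, 12.92 ± 0.16 and 12.84 ± 0.20 (SD, n = 7 and 12), stood above the highest rat of batch 4.

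How far the peptide genes moved against the receptor gene was read from the log2 ratio of a pair of members in the same library, from which the library's scaling cancels. The ratio itself depends on transcript lengths, so only its differences between rat batches were considered. These tests were also chosen after the data were seen. The log2 ratio of Tac1 to Drd1 was high in rat batches 2 and 3, with means of 0.68 ± 0.21 (SD, n = 12) and 0.70 ± 0.17 (SD, n = 20). Rat batches 4 and 6 had means of 0.31 ± 0.15 (SD, n = 26) and 0.11 ± 0.19 (SD, n = 16), and the rat of batch 5 stood at 0.13. Of the 26 rats of batch 4, 22 lay below the lowest rat of batch 2, as did 15 of the 16 rats of batch 6. Of the variance of this ratio, 68.9% lay between rat batches (permutation test of F with rats permuted within sex, p = 1e-05, the smallest that 100000 permutations can give).

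The log2 ratio of Pdyn to Drd1 was 1.36 ± 0.20, 1.5 ± 0.16, 1.20 ± 0.15 and 1.18 ± 0.18 in rat batches 2, 3, 4 and 6 (SD), and that of Tac1 to Pdyn was -0.68 ± 0.17, -0.79 ± 0.18, -0.90 ± 0.17 and -1.07 ± 0.15. Within rat batch 3 the ratio of Pdyn to Drd1 was 1.41 ± 0.10 in the 7 rats of run 1 and 1.56 ± 0.16 in the 12 rats of run 2 (SD), a gap of about the size of that between rat batches 2 and 3. Both differed between rat batches by the same permutation test, again with the smallest p that 100000 permutations can give. For all 3 ratios, the permutation p was 1e-05 after adjustment over the 3 tests. The column run was not fitted in these tests, and no share over other pairs of genes was computed. Tac1 and Pdyn had already been seen to differ between rat batches and Drd1 had not, so the ratios to Drd1 largely restate that. By their means, the peptide genes stood lower against Drd1 in rat batches 4 and 6 than in 2 and 3, and so did Tac1 against Pdyn.

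**Figure D3:**
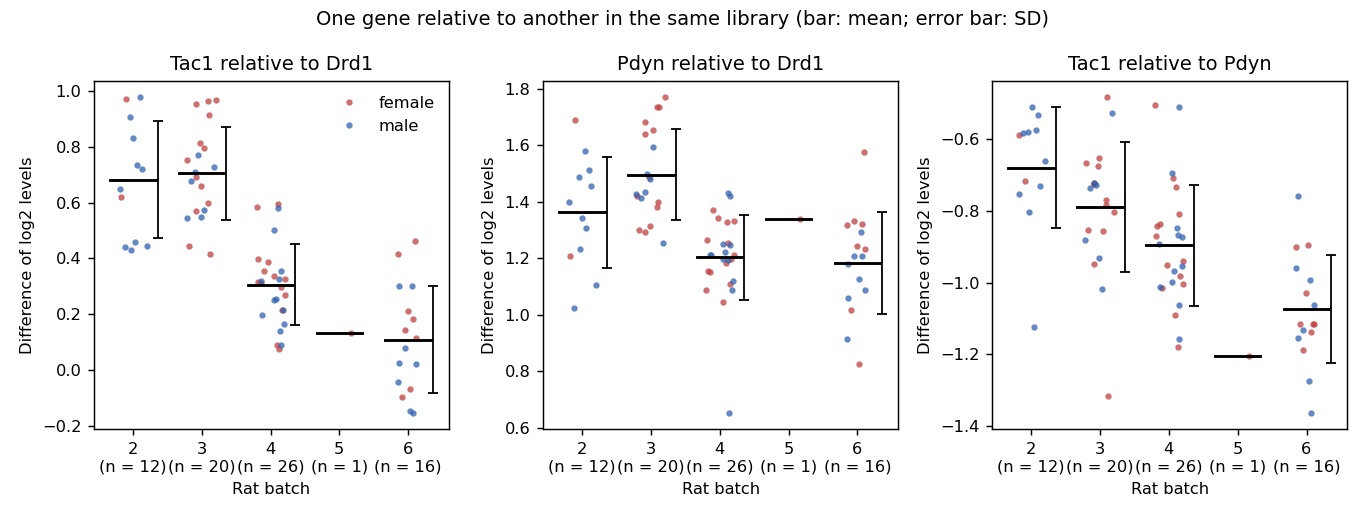
Difference of log2 levels between a pair of the genes in the same library, for each of the 75 rats by rat batch and sex (points), with the mean (bar) and SD (error bar) of each rat batch. Tac1 relative to Drd1 has means of 0.68 and 0.70 in rat batches 2 and 3, and 0.31 and 0.11 in rat batches 4 and 6.

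Within a single run, only rat batches 4 and 6 (run 3) and rat batches 2 and 3 (run 1) could be compared, so the contrasts of rat batches 2 and 3 with 4 and 6 could not be tested in this way. Within run 3, the log2 ratio of Tac1 to Drd1 was lower in the 16 rats of batch 6 than in the 26 rats of batch 4 by 0.19 (permutation test within sex, two-sided, p = 0.00075, adjusted p = 0.0069 over 12 tests). The log2 ratio of Tac1 to Pdyn differed by -0.18 (permutation p = 0.00115, adjusted p = 0.0069), and the Tac1 level itself by -0.14 (permutation p = 0.0375, adjusted p = 0.11). Drd1, Pdyn and the ratio of Pdyn to Drd1 differed by 0.06, 0.04 and -0.02 there, and none passed. Within run 1, none of the 6 measures differed between rat batches 2 and 3 after adjustment. The nearest was Pdyn, higher in rat batch 3 by 0.21 (exact permutation test within sex, 7 rats against 12, two-sided, p = 0.0368, adjusted p = 0.11).

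No member passed the test between females and males after adjustment over all genes. The mean level of Drd1 was 12.14 ± 0.16 in the 38 females and 12.12 ± 0.15 in the 37 males (SD). Mean Pdyn levels were 13.48 ± 0.20 and 13.39 ± 0.20 in the same order, and mean Tac1 levels were 12.59 ± 0.31 and 12.52 ± 0.30. With rat batch as a covariate, the male minus female log2 difference was -0.01 for Drd1 (SE 0.04, limma adjusted p = 0.98), -0.08 for Pdyn (SE 0.04, limma adjusted p = 0.75) and -0.09 for Tac1 (SE 0.05, limma adjusted p = 0.77). Unadjusted, the limma p was 0.042 for Pdyn and 0.052 for Tac1, in a fit where 1110 of the 17180 genes were under 0.05. With the column run as a covariate the limma p was 0.026 and 0.047, with 1255 genes under 0.05. Other alternatives raised it, to 0.073 and 0.12 after inverse normal transformation and to 0.13 and 0.14 without rat batch 4 (limma). None of the members passed, against 15 genes, or 0.0873%, of all those tested. The count over all genes was 23 without rat 11 of rat batch 2, a female.

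Within rat batches the male minus female log2 differences of the peptide genes had the same sign. For Pdyn they were -0.07, -0.08 and -0.05 in rat batches 3, 4 and 6, and for Tac1 -0.08, -0.09 and -0.08. Those of Drd1 were 0.01, -0.05 and 0.04. None passed within a rat batch, where limma called 0.0582%, 0.0524% and 0.0466% of genes. No gene passed the test of the interaction of sex and rat batch over rat batches 3, 4 and 6 (limma, 0 of 17180 genes, 506 with an unadjusted p under 0.05), and the members had adjusted p-values of at least 0.99.

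The spread between rats was also read after sex and rat batch means were removed. The residual SD was 0.16 for Drd1, 0.15 for Pdyn and 0.20 for Tac1 on the log2 scale, several times the counting SD above. The median was 0.14 over the 1843 genes with a mean level of at least 11, and 67.3% of these had a smaller residual SD than Drd1, 64.1% a smaller one than Pdyn and 85% a smaller one than Tac1. The spread of Tac1 was thus in the upper part of the range for genes of this abundance. Over the 12988 genes with a mean level of at least 5, the median residual SD was higher, 0.197. Of these genes, 32.4% had a smaller residual SD than Drd1, 30.2% than Pdyn and 49.4% than Tac1.

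A few rats stood far from their group in more than 1 gene. Rat 6 of rat batch 2, the male with the shallowest library, departed from its group by -3.02 residual SD in Drd1, -2.23 in Pdyn and -1.23 in Tac1. Rat 4 of rat batch 4, a male, had -2.06, -1.61 and -2.56 in the same order, and rat 4 of rat batch 6, a female, had -2.07, -2.04 and -1.86. These rats were thus low in the receptor gene and in both peptide genes. Other rats departed by over 2 residual SD in a single gene. Rat 2 of rat batch 6, a male, had 2.43 in Tac1, against 1.52 in Drd1 and 0.97 in Pdyn. In the order Drd1, Pdyn and Tac1, rat 15 of rat batch 3 had -1.30, 0.05 and -2.68, and rat 2 of rat batch 2 had -0.55, -2.68 and -1.61. Rat 6 of rat batch 4 had 1.07, -2.25 and 0.25, and rat 5 of rat batch 6 had -2.22, 0.04 and -0.21.

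Across rats the members rose and fell together. Of the 74 rats of rat batches 2, 3, 4 and 6, 19 were above their group in all 3 genes, 18 were below in all 3 and 37 were mixed. Drd1 and Tac1 residuals correlated with r = 0.56 and rho = 0.54 over the 74 rats (permutation of rats within sex and rat batch, two-sided, p = 1e-05 and 2e-05, adjusted p = 1.5e-05 and 3e-05 over the 3 pairs). Pdyn and Tac1 correlated with r = 0.55 and rho = 0.57 (permutation p = 1e-05 for both, adjusted p = 1.5e-05 and 3e-05). The value 1e-05 is the smallest that 100000 permutations can give. Drd1 and Pdyn had the lowest correlation, r = 0.44 and rho = 0.44 (permutation p = 0.00025 and 0.00021, unchanged by adjustment).

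**Figure D4:**
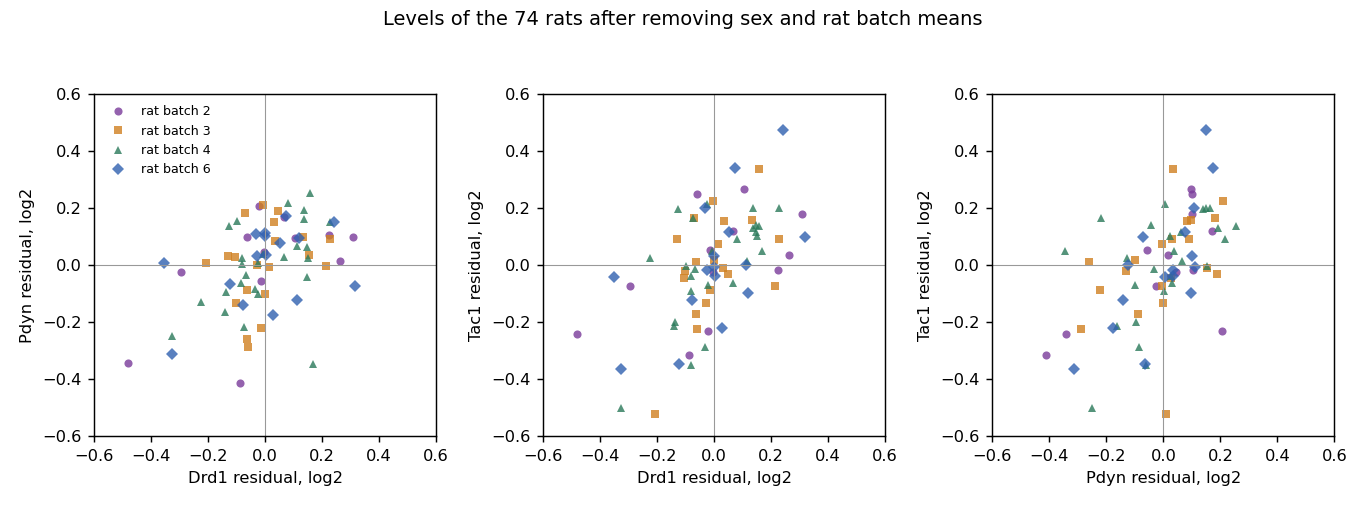
Levels of each pair of members in the 74 rats of rat batches 2, 3, 4 and 6 after the means of sex and rat batch were removed (log2), with symbols for the rat batches. Points run from lower left to upper right in each panel, with r = 0.44 for Drd1 and Pdyn, 0.56 for Drd1 and Tac1, and 0.55 for Pdyn and Tac1.

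Without the pair of rats farthest from the median of the first gene, r was 0.39 for Drd1 and Pdyn, 0.57 for Drd1 and Tac1 and 0.56 for Pdyn and Tac1. Rats far out in several genes, such as rat 4 of rat batch 4 and rat 4 of rat batch 6, were still in these values. Within rat batches 2, 3, 4 and 6, r was 0.58, 0.28, 0.46 and 0.38 for Drd1 and Pdyn. It was 0.53, 0.51, 0.64 and 0.59 for Drd1 and Tac1, and 0.61, 0.42, 0.51 and 0.75 for Pdyn and Tac1. All 12 were positive. By permutation of r, adjusted over the 3 pairs of a rat batch, those of rat batch 4 passed (n = 26), as did those of Tac1 with each other member in rat batch 6 (n = 16), and the other 7 did not. By rho, the same 5 passed, and so did Pdyn with Tac1 in rat batch 3 (rho = 0.58, permutation adjusted p = 0.032). In females alone r was 0.41, 0.54 and 0.56 for the pairs in the same order, and in males alone 0.48, 0.59 and 0.55.

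Measures of the libraries were set beside these residuals. The log2 total count correlated with Drd1 at r = 0.10, with Pdyn at r = -0.03 and with Tac1 at r = 0.12, and the number of genes at 0 at r = -0.02, 0.12 and 0.10. Without the pair of libraries farthest from the median of the measure, the values were -0.04, -0.16 and 0.03 for the total count and 0.15, 0.27 and 0.24 for the genes at 0. With all libraries, Spearman's rho lay between -0.09 and 0.25, and none of these 6 relations passed after adjustment (permutation, lowest adjusted p = 0.21, for the rho of Pdyn with genes at 0, whose unadjusted p was 0.035). The first component of the residuals of all genes held 6.69% of their variance and correlated with Drd1 at r = 0.39, with Pdyn at r = 0.49 and with Tac1 at r = 0.53, given as a description since the members enter the component. With this component as a covariate, r fell to 0.31 for Drd1 and Pdyn, 0.45 for Drd1 and Tac1 and 0.39 for Pdyn and Tac1, each still past the threshold.

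The correlation of each member with the other 12987 genes with a mean level of at least 5 set these values against the rest of the transcriptome. The values are a description over the same 74 rats, and genes are not independent replicates. Drd1 had many companions, with r of at least 0.5 for 577 genes, or 4.44%, and r of -0.5 or less for 122. Tac1 had 80 genes, or 0.616%, at or above 0.5 and 61 at or below -0.5, and Pdyn had 19, or 0.146%, and 33. The highest r was 0.80 for Drd1, 0.69 for Tac1 and 0.61 for Pdyn.

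The members stood unequally high in these orders. Tac1 was the 11th most correlated gene with Pdyn, and Drd1 was the 71st. With Tac1, Drd1 ranked 35 and Pdyn 40. With Drd1, Tac1 ranked 303 and Pdyn 968, so that 7.45% of genes followed Drd1 more closely than Pdyn did.

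**Figure D5:**
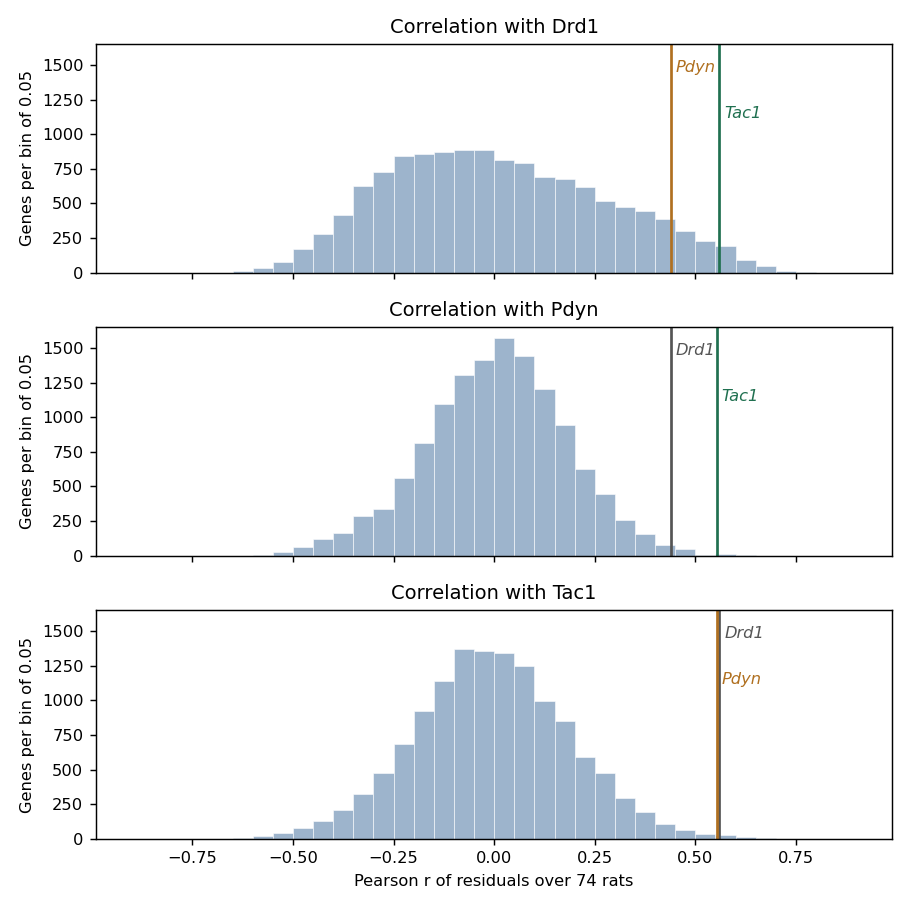
Number of genes per bin of Pearson r (width 0.05) with Drd1, Pdyn and Tac1, over the residuals of 74 rats and 12987 other genes, with lines at the r of the other members. The distribution of Drd1 is the broadest, with 577 genes at or above 0.5, and both other members lie at its right flank.

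The genes nearest to each member overlapped in part. These figures are a description that follows in part from the correlations of the members with each other over the same rats. The overlap due to chance was not computed. Of the 100 genes with the highest r, 18 were shared by Pdyn and Tac1, 15 by Drd1 and Tac1 and 4 by Drd1 and Pdyn, and 3 were in all 3 lists, with the members themselves left out. Of the 100 with the lowest r, 30, 20 and 9 were shared in the same order, and 7 were in all 3 lists. Across the 12985 genes that are no compared member, the correlations with Drd1 and with Tac1 had r = 0.62, those with Pdyn and with Tac1 had r = 0.58 and those with Drd1 and with Pdyn had r = 0.46.

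Genes other than the members are given by identifier, as the table pairs none with a symbol. By the mean of the 3 correlations, ENSRNOG00000002369 came first, with r = 0.80 with Drd1, 0.48 with Pdyn and 0.61 with Tac1. Within rat batches 2, 3, 4 and 6 its mean r was 0.71, 0.70, 0.50 and 0.67. As the gene was picked over these same rats, the values within rat batches are no separate check. ENSRNOG00000012060 followed, with 0.73, 0.46 and 0.64, and did not pass the test between rat batches (limma adjusted p = 0.47). At the other end, ENSRNOG00000024905 had -0.48, -0.61 and -0.61, and ENSRNOG00000037835 had -0.56, -0.51 and -0.59. Both varied more between rats than the members, with residual SDs of 0.88 and 0.61 on the log2 scale. Their mean levels, 6.12 and 5.46, were far below those of the members, and counting alone gives a larger SD at such levels.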

How the data were processed

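According to the authors' methods and the submitters' processing notes, single-end reads were trimmed with cutadapt, quantified with RSEM on Ensembl's rat transcripts (Rnor_6.0), scaled to the upper quartile with DESeq2, filtered for genes with few reads and log-transformed after adding 1. The deposited values are on the log2 scale, log2(scaled count + 1), for 17180 genes in 75 libraries, and no column was left unmapped (0 columns). Each scaled count was whole to within 0.000398%, and the scaling factor of each library was recovered from its rounding pattern, giving the total counts. On simulated libraries the search returned 75 of 75 factors to within 1%.

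R 4.3.3 and limma 3.58.1 (lmFit, eBayes with trend) served to test differences in log2 value in rat batches 2, 3, 4 and 6 (74 libraries, rat batch 5 being 1 library), with Benjamini-Hochberg adjustment over all genes and a threshold of 0.05. The members were matched by identifier. The test between the sexes was also run on simulated data with a single dispersion of 0.02 and no rat batch difference put in. There, 100 of 100 changes of 0.5 and 83 of 100 of 0.25 were called, with 3 false calls. Whether these counts hold for the measured libraries, where rat batches differed, was not tested. Residuals are log2 values after sex and rat batch were fitted. Correlations and ratios were tested with 100000 permutations within sex, and for correlations within rat batch too. The scripts ran in Python 3.11.15 (numpy 2.4.6, pandas 2.3.3), with figures from matplotlib 3.10.9. Each library is 1 rat, and the tests set results against the spread between rats, not between repeats of a rat batch. As rat batch and column run moved together, a small p-value between rat batches does not tell them apart.

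The members and lists were chosen with earlier results of these data known, and other pathway and cell type lists (100 symbols) were not used, since the reference tables paired 0 Ensembl identifiers with symbols and names were not taken from the study's supplement, which covers part of them. Markers of other cell types or regions were therefore not read, and the members alone cannot show whether the dissection was correct. Named genes were to be the members, the listed genes, the 10 genes with the highest and 5 with the lowest r with each member and the 10 with the highest mean r, of which at most 2 each way are given by identifier where no symbol was at hand. Alternatives were a filter on low values, other pseudocounts, inverse normal transformation, quantile normalization, eBayes without trend, further covariates and the omission of rats or rat batches. Alternatives for pairs of rat batches, each sex alone, ratios and single runs were chosen after seeing the data.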

Additional observations from a re-analysis of the deposited data

Results flagged for a closer look

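The Drd1 level of rat 6 of rat batch 2, a male, stood apart from the other 9 males of that batch. It was 11.60, while the others lay between 11.996 and 12.35, and its gap to the nearest was 0.528 of the range of the 10 rats, above Dixon's 95% critical value. The same library had the lowest total count of all, 8455361, and over the 74 rats r between Drd1 and the log2 total count was 0.10, and -0.04 without the pair of libraries farthest from the median count. It was the only value past the criterion in 12 checks (3 genes in 4 groups of 7 to 10 rats of the same sex and rat batch), where chance flags about 1 in 20.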

How the results depend on the processing

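No paired analysis was possible because numbers serve here only as names of rats. With the column run as a covariate, the count of genes that differed between rat batches moved from 9192 to 169, F fell to 1.96 for Pdyn and 2.66 for Tac1, neither past the threshold, and the counts for rat batches 3 against 2, 4 against 2, 6 against 2, 4 against 3 and 6 against 3 each came to 0. In that fit the log2 difference of Pdyn became 0.13 (4 against 2), 0.17 (6 against 2) and 0.00085 (6 against 3). That of Drd1 became 0.16 (3 against 2), 0.18 (4 against 2), 0.23 (6 against 2), 0.016 (4 against 3) and 0.07 (6 against 3). None of these was past the threshold. Without rat batch 3 the count was 5723, with fewer rats tested, and F for Pdyn was 4.17 (limma adjusted p = 0.058). Without the males with the lowest total count in rat batches 2 and 6, rat batches 3 and 2 differed in 289 genes, not 591, and Drd1 differed by -0.021 between rat batches 4 and 2. When each female of rat batch 2 was left out in turn, the count of sex genes ran from 16 to 23 and the Drd1 sex difference from -0.027 to 0.0077. Without rat batch 4 that difference was 0.017. With a pseudocount of 8, the interaction count was 1 in place of 0. The cause of these changes was not tested. Within rat batches, correlations that no longer passed were 0.58, 0.53 and 0.61 in rat batch 2 and 0.28, 0.51 and 0.42 in rat batch 3 (Drd1 with Pdyn, Drd1 with Tac1, Pdyn with Tac1), and 0.38 in rat batch 6 (Drd1 with Pdyn). These groups hold 12 to 20 rats. Drd1 passed between rat batches under none of the 15 alternatives (F from 0.48 to 1.97), the sex differences of Pdyn and Tac1 stayed negative and short of the threshold under all 15, and the correlations pooled over rat batches stayed positive and past the threshold under every alternative run. The covariate made of genes of both projection neuron types was not run, since its genes were not matched to identifiers here. Depth gave at least 1426 counts behind every value of the members.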
